A study of Mus musculus with 19 samples.

Results

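The mitochondrial ribosomal protein genes were the genes whose name in the deposited table is Mrpl or Mrps, a number and at most 1 further letter. There were 75 such genes among the 19716 genes of the table, 49 of them encoding proteins of the large subunit and 25 of the small subunit. The remaining gene, Mrps36, carries the name but its product is known as a component of the 2-oxoglutarate dehydrogenase complex. All 75 passed the filter on low values, which asked for a normalised count of at least 1 in at least 4 libraries. The study used a line of mouse embryonic fibroblasts (MEF) that lacks Sec24D and that all 19 libraries share, so no library had intact Sec24D. SEC24 proteins pick up cargo for the COPII coat, which buds vesicles from the endoplasmic reticulum. Cells received scrambled siRNA at 50 nM (n = 4 libraries) or at 150 nM (n = 5), siRNA against Sec24B (n = 5), or siRNA against Sec24A, Sec24B and Sec24C together, here called the triple knockdown (n = 5), for 48 h. SEC24 siRNA was given as 50 nM in the treatment protocol. The Sec24B knockdown was therefore compared with the 50 nM control, and the triple knockdown, by its 3 siRNAs, with the 150 nM control. The labels do not say how many clones the knockout line came from or whether replicates are separate cultures, so the p-values rest on a spread that may be technical.

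The mitochondrial ribosome translates the few proteins encoded by mitochondrial DNA, all of them core subunits of the respiratory chain and the ATP synthase. Its rRNAs are transcribed inside the organelle, whereas its proteins are encoded in the nucleus, made in the cytosol and imported. Many of the proteins descend from bacterial ribosomal proteins, and the rest were acquired by the mitochondrial ribosome. Protein families shared with bacteria are named uL or uS when they are universal and bL or bS when they are bacterial.

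The targeted transcripts were lower in the knockdowns, and a pair of libraries stood apart, which touches every result of the triple knockdown. Libraries held 9101855 to 19709672 reads. Sec24b was at 1046 to 1217 normalised counts with 50 nM scrambled siRNA and at 454 to 498 in the Sec24B knockdown. In the triple knockdown Sec24a, Sec24b and Sec24c were at 299 to 583, 369 to 606 and 752 to 858, against 732 to 888, 1159 to 1256 and 2705 to 2951 with 150 nM scrambled siRNA. Sec24d was listed at 223 to 563 in these knockout cells, and without wild-type libraries these values check nothing. Of 10 fibroblast markers 9 were in the table, with Lum near 0 (0 to 6.55). They summed to 317143 to 344216 in the triple knockdown and to 461724 to 561657 in its 150 nM control, without overlap, and to at least 402876 in the other groups. Of 6 leukocyte markers Cd68 and Csf1r were in the table and summed to 123.4 to 155.6 with 150 nM scrambled siRNA, against 51.3 to 88.6 in the other 3 groups. Markers of endothelium, epithelium and neural cells summed to at most 80.2 per list. The part of these marker levels in the results of the members was not tested. RNA levels here are per library, so fewer cells of a kind and less RNA per cell cannot be told apart.

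Replicates 1 and 5 of the triple knockdown differed from the other 3 in a way related to transcript length. Coding genes were split into 4 bins of like size by the length of their principal transcript, and each value was taken as a log2 deviation from the gene's mean over all libraries. The bin of shortest transcripts (up to 2002 bases) had medians of 0.36 in replicate 1 and 0.17 in replicate 5, against -0.0049 to 0.013 in replicates 2 to 4. The bin of longest transcripts had medians of -0.34 and -0.20 in the same 2 libraries. Other libraries had length trends too. The Spearman correlation of deviation with length was -0.59 in replicate 1, -0.41 in replicate 5 and -0.063 to 0.027 in replicates 2 to 4. It was 0.034 to 0.26 with 150 nM scrambled siRNA, -0.066 to 0.40 with 50 nM and -0.32 to 0.19 in the Sec24B knockdown. Of the 75 members, 50 lay in the shortest bin. The median of the members was 0.49 in replicate 1 and 0.23 in replicate 5, against 0.015, 0.054 and 0.026 in replicates 2, 3 and 4 and -0.17 to -0.034 in the 150 nM scrambled libraries. These 2 libraries also held the least of every targeted transcript. Sec24a was at 299 and 403, against 572 to 583 in replicates 2 to 4. Sec24b was at 369 and 436, against 531 to 606, and Sec24c at 775 and 752, against 829 to 858. A fit without these 2 libraries thus also lacks the lowest target levels. Most results of the triple knockdown are therefore given with and without them. The counts of members, and the members with the largest changes, are also given after the trend with transcript length was removed from every library. Both alternatives were added after the data had been seen.

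**Figure D1:**
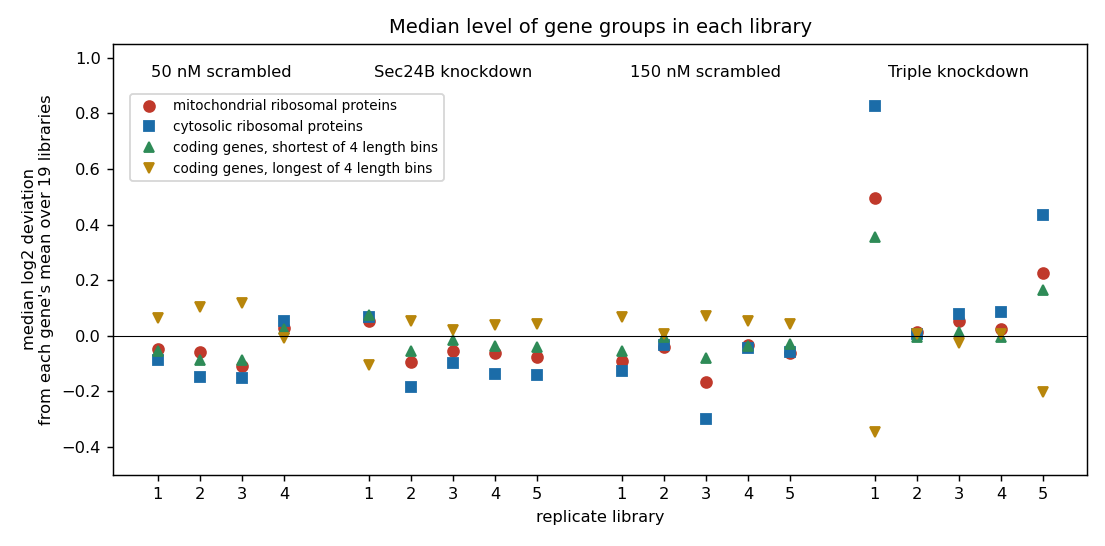
Median log2 deviation from each gene's mean over 19 libraries (vertical axis) in each replicate library of the 4 groups (horizontal axis), for the 75 mitochondrial ribosomal protein genes, the 75 cytosolic ribosomal protein genes and the coding genes in the shortest and longest of 4 bins of transcript length. Triple knockdown replicates 1 and 5 stand apart, with member medians of 0.49 and 0.23 against 0.015 to 0.054 in replicates 2 to 4.

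The members were expressed in every library. Their mean normalised counts over the 19 libraries ran from 165.1 to 1331, with a median of 609.4, and no member fell below 120.1 in any library. Per kilobase of principal transcript, the median level was 353.9 normalised counts. Mrpl52, a large-subunit protein acquired by the mitochondrial ribosome, had the highest level per kilobase (2042), followed by Mrpl54 (1576) and Mrpl42 (1465). Mrpl48 (38.5), Mrpl47 (65.0) and Mrpl1 (80.4) had the lowest. The genes lie on 17 chromosomes. Coordinates of all 75 in the deposited table matched GENCODE M21 on the GRCm38 build. Within a group the SD of a member was, by median, 6.68% of its mean with 50 nM scrambled siRNA, 6.64% in the Sec24B knockdown, 7.07% with 150 nM scrambled siRNA and 16.7% in the triple knockdown.

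In the triple knockdown 43 of the 75 members rose and 1 fell (limma, Benjamini-Hochberg adjusted p under 0.05 over all 19635 genes tested). In the same comparison 16.8% of all genes rose and 17.2% fell. The median log2 fold change of the members was 0.26, against 0.012 over all genes, and 67 members were above 0. Rises that passed the test were small, from 0.20 to 0.70 on the log2 scale with a median of 0.34. For 28 members all 5 triple knockdown libraries lay above all 5 control libraries, and for 1 member all lay below, against 10.1% and 11.7% of all genes. The authors' deposited table of the same comparison lists 44 members higher and 1 lower. Without replicates 1 and 5 the median of the members was 0.13, 28 rose (14.8% of all genes) and 5 fell (16.0%). With the length trend removed the median was 0.16, 34 rose (16.7%) and 8 fell (18.3%). Of the 43, 28 were also called higher without the 2 libraries, 32 with the length trend removed and 25 in both. In replicates 2 to 4 alone, 30 members lay above all 150 nM scrambled libraries and 5 below them, against 15.3% and 16.6% of all genes.

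**Figure D2:**
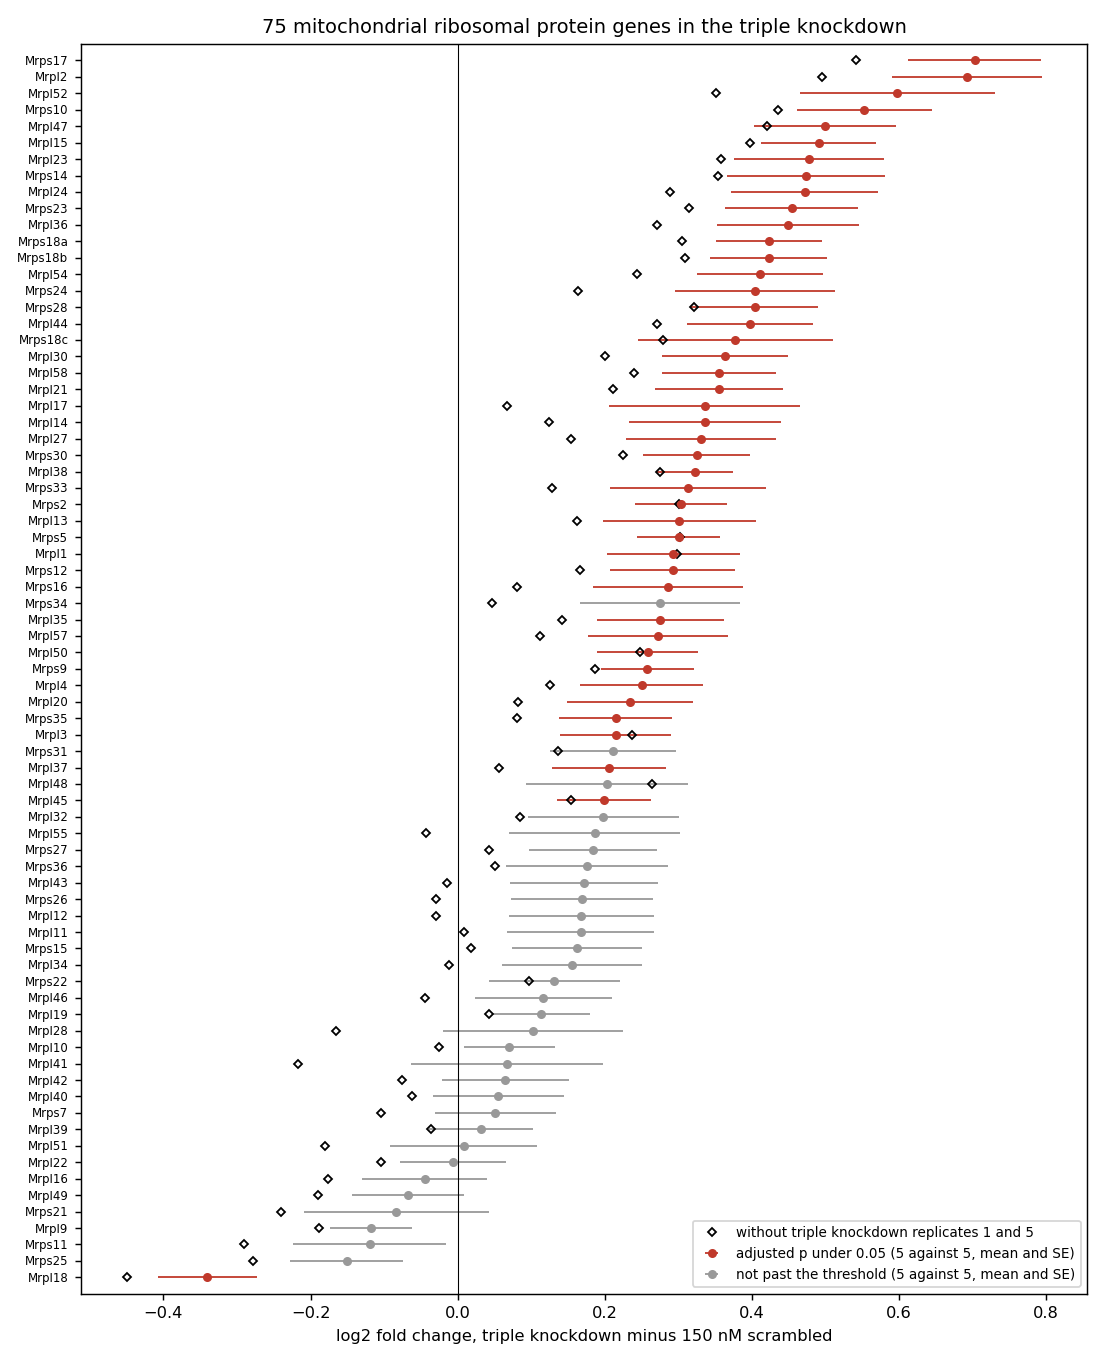
Log2 fold change of each of the 75 members (rows, in order of size) in the triple knockdown against 150 nM scrambled siRNA; circles and bars give the mean and SE over 5 against 5 libraries, and open diamonds the value without triple knockdown replicates 1 and 5. The 43 members that rose lie between 0.20 and 0.70, most diamonds lie to the left of their circle, and Mrpl18 fell.

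Promoters were looked at because the members moved together in part. RefSeq windows on GRCm38.p6, from 250 bases before to 50 bases after the start, were matched for 66 of the 75 members and for 12462 of the genes tested. Where a gene had several windows, members took the window nearest their GENCODE start and other genes the first listed. The shares of members and of all windows below thus rest on unlike choices, and the effect of this was not tested. Words of factors known for genes of mitochondrial function were searched on both strands. CGCANGCG (NRF1) stood in 20 of the 66 member windows (30.3%) and in 15.3% of all windows. CCGGAAG (the ETS family) stood in 22 (33.3%, against 16.0%), AAGATGGC (YY1) in 12 (18.2%, against 4.08%) and ACTACANNT (ZNF143) in 6 (9.1%, against 5.28%). TGATGNAA, a word of the ATF4 composite site, stood in none of the 66, against 2.38% of all windows. No member window had 2 different words overlapping. Split by call, NRF1 was in 8 of 36 windows of members that rose and in 12 of 30 others, and ETS in 13 of 36 and 9 of 30. These counts describe letters and were not tested. The 150 bases before the start follow, 5′ to 3′ on the gene's strand, for the 2 members that rose most and held none of these words, and for 3 that show them in capitals.
Mrps17, chr5:129715347-129715496, plus strand: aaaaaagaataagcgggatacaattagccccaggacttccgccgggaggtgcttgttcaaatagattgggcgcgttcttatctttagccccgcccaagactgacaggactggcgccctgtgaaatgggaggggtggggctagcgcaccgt
Mrpl2, chr17:46646079-46646228, plus strand: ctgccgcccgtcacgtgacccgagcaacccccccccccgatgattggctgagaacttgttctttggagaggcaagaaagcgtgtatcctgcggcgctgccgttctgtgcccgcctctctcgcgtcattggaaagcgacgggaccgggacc
Mrpl52, chr14:54426759-54426908, plus strand, ETS word in capitals: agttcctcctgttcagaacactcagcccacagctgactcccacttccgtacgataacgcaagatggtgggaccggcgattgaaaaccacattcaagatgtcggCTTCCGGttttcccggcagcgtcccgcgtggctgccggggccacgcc
Mrpl30, chr1:37890327-37890476, plus strand, NRF1 words in capitals: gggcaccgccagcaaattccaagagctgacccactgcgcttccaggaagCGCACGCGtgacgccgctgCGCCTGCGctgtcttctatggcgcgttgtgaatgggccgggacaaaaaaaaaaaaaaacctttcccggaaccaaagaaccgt
Mrpl50, chr4:49521084-49521233, minus strand, ZNF143 words in capitals: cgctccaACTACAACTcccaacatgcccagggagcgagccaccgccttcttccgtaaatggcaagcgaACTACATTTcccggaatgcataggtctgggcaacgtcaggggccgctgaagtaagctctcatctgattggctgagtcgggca
Counted back from the start, the ETS word of Mrpl52 spans -47 to -41, read on the opposite strand, and a second lies just after the start, outside the bases shown. Those of NRF1 in Mrpl30 begin at -101 and -82, and those of ZNF143 in Mrpl50 at -143 and -82. The RefSeq start of Mrpl50 lies 10 bases from that of GENCODE, and for the other 4 both coincide. Mrpl30 (uL30) rose by 0.36 ± 0.086 (SE) in the triple knockdown (adjusted p = 0.00166), from 839, 819, 726, 849.9 and 852 to 1371, 893, 947, 975 and 1131. The groups overlapped in no library, and the change was 0.20 without replicates 1 and 5. With 50 nM scrambled siRNA Mrpl30 was at 1021, 1008, 851 and 991, a range that held triple knockdown replicates 2 to 4. From 50 to 150 nM it changed by -0.24 ± 0.091 (SE) (limma, adjusted p = 0.0999). That change passed the test without triple knockdown replicates 1 and 5 (limma, adjusted p = 0.00397).

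The largest rise was in the small subunit. Mrps17 (uS17, ENSMUSG00000034211, chr5:129715497-129722556, plus strand) is a protein that binds the small rRNA. Mrps17 stood at 569, 589.7, 509, 595 and 635 normalised counts in the 150 nM scrambled libraries and at 1258, 782, 879, 867 and 986 in triple knockdown replicates 1 to 5. The groups did not overlap, and replicate 1 was the highest. The log2 fold change was 0.70 ± 0.090 (SE), with an adjusted p of 1.17e-06. It was 0.54 without replicates 1 and 5 and 0.82 with the length trend removed. Its principal transcript has 5061 bases.

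The other small-subunit genes among the 10 largest rises were Mrps10, Mrps14 and Mrps23. Mrps10 (uS10) and Mrps14 (uS14) belong to the head of the subunit, and Mrps23 is a protein acquired by the mitochondrial ribosome. Mrps10 was at 285, 239, 230.2, 309 and 298 with 150 nM scrambled siRNA and at 465, 382, 357, 359 and 433 in the triple knockdown, where all 5 libraries lay above all controls. Its log2 fold change of 0.55 ± 0.091 (SE) (adjusted p = 3.76e-05) went to 0.44 without replicates 1 and 5 and to 0.38 with the length trend removed. Mrps14 was at 425, 403, 316, 427 and 430.0 in the controls and at 777, 535, 501, 490.2 and 505 in the triple knockdown. The groups were apart here too, with control replicate 3 the lowest and triple knockdown replicate 1 the highest by a wide margin. The change was 0.47 ± 0.11 (SE) (adjusted p = 0.00118), 0.35 without the 2 libraries and 0.47 with the length trend removed. Mrps23 rose from 367, 341, 344, 386 and 401 to 664, 456, 458, 455 and 509, by 0.45 ± 0.091 (SE) (adjusted p = 0.00033) with all libraries, by 0.31 without the 2 and by 0.31 with the length trend removed. Replicates 2 to 4 of the triple knockdown were nearly alike for this gene and all above the controls.

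Across the small subunit 15 of 25 members rose and none of the 25 fell, also at an unadjusted p under 0.05 in limma and by edgeR and DESeq2. The shares over all genes were 16.8% higher and 17.2% lower. Without replicates 1 and 5 the counts were 9 and 2 (14.8% and 16.0% of all genes). With the length trend removed they were 10 and 2 (16.7% and 18.3%). Mrps5 (uS5), which lies near the path by which mRNA enters, had closely grouped libraries. It was at 615, 619, 643, 589 and 594 in the controls and at 758, 729.8, 782, 753 and 747 in the triple knockdown. Its change of 0.30 ± 0.056 (SE) (adjusted p = 0.000157) was 0.30 without replicates 1 and 5, about as large as with them. The change of Mrps2 (uS2) was 0.30 in both fits. The bacterial bS18 family has 3 mitochondrial copies. Mrps18b and Mrps18c are in the small subunit and rose by 0.42 ± 0.079 (SE) and 0.38 ± 0.13 (SE), and Mrps18a, in the large subunit, rose by 0.42 ± 0.072 (SE). Without the 2 libraries Mrps18a and Mrps18b kept their call, at 0.31 and 0.31, and Mrps18c did not (adjusted p = 0.0762). Leaving out control replicate 2 or 4 or triple knockdown replicate 1 or 2, 1 at a time, also ended the call of Mrps18c, with adjusted p of 0.0528, 0.0961, 0.103 and 0.0556. Its mean was 222.5 at 50 nM, 173.5 at 150 nM and 229.4 in the triple knockdown. From 50 to 150 nM it changed by -0.35 ± 0.14 (SE) (limma, adjusted p = 0.124). Gm43511 overlaps 18.5% of the exon bases of Mrps18c. The 10 small-subunit members that did not pass the test ran from -0.15 (Mrps25) to 0.28 (Mrps34).

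In the large subunit 28 of 49 members rose and 1 fell, against 16.8% and 17.2% of all genes. Those counts became 19 and 3 without replicates 1 and 5 (14.8% and 16.0% of all genes). With the length trend removed they became 24 and 6 (16.7% and 18.3%). Mrpl2 (uL2, ENSMUSG00000002767, chr17:46646229-46650139, plus strand), whose bacterial relative lies close to the peptidyl transferase centre, had the largest rise of the subunit. Mrpl2 was at 742, 798, 699.5, 724 and 706 normalised counts in the 150 nM scrambled libraries and at 1674, 1077, 1017, 1009.8 and 1263 in the triple knockdown. All triple knockdown libraries lay above all controls. The log2 fold change was 0.69 ± 0.10 (SE) (adjusted p = 7.83e-06), 0.50 without replicates 1 and 5 and 0.52 with the length trend removed. Mrpl52 (ENSMUSG00000010406, chr14:54426909-54429756, plus strand) has the shortest principal transcript of the members, 418 bases. It was at 795, 839, 569.5, 829 and 702 in the controls and at 1741, 901, 958, 971 and 1203 in the triple knockdown. Although the groups did not overlap, replicate 1 was far above the other libraries. The change of 0.60 ± 0.13 (SE) (adjusted p = 0.000982) was 0.35 without replicates 1 and 5 and 0.33 with the length trend removed.

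The other large-subunit genes among the 10 largest rises were Mrpl15 (uL15), Mrpl23 (uL23), Mrpl24 (uL24) and Mrpl47 (uL29). The bacterial relatives of the last 3 lie around the exit of the tunnel through which the new chain leaves the ribosome. Mrpl22 (uL22), another protein of that tunnel, was at -0.0063 ± 0.072 (SE) (adjusted p = 0.962). Mrpl47 was at 187, 180.2, 182, 172 and 215 in the controls and at 344, 272, 252, 229.8 and 240.5 in the triple knockdown, without overlap. The change was 0.50 ± 0.097 (SE) (adjusted p = 0.000237), 0.42 without replicates 1 and 5 and 0.52 with the length trend removed. Actl6a and Ndufb5 overlap 18.1% of its exon bases, and as strand is not stated for these libraries their reads cannot be told apart there. Mrpl24 was at 529, 508, 476, 469.9 and 541 in the controls and at 978, 595, 648, 606 and 731 in the triple knockdown. It rose by 0.47 ± 0.10 (SE) (adjusted p = 0.000634) by 0.29 without the 2 libraries and by 0.33 with the length trend removed. Rrnad1 overlaps 38.2% of its exon bases. Mrpl15 was at 725, 726, 638, 772 and 736 in the controls and at 1293, 951, 999.99, 890.0 and 956 in the triple knockdown. Replicates 2 to 5 were close together and above every control, and replicate 1 was higher still. The change was 0.49 ± 0.079 (SE) (adjusted p = 2.44e-05), 0.40 without replicates 1 and 5 and 0.56 with the length trend removed.

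Mrpl18 (uL18, ENSMUSG00000057388, chr17:12911349-12916345, minus strand) was the member that fell. Its bacterial relative binds 5S rRNA in the central protuberance of the large subunit. Mrpl18 was at 1238, 1249.8, 1214, 1289.5 and 1239 normalised counts with 150 nM scrambled siRNA and at 1167, 906, 939, 891 and 1042 in the triple knockdown. All triple knockdown libraries lay below all controls, with replicates 1 and 5 nearest to them. The log2 fold change was -0.34 ± 0.067 (SE) (adjusted p = 0.000281), -0.45 without replicates 1 and 5 and -0.49 with the length trend removed. Tcp1 overlaps 1.4% of its exon bases. In the Sec24B knockdown Mrpl18 was at -0.20 ± 0.071 (SE) and did not pass the test (limma, adjusted p = 0.0636). Its Sec24B value passed as lower in both alternatives. It was -0.20 without triple knockdown replicates 1 and 5 (adjusted p = 0.00609) and -0.25 with the length trend removed (adjusted p = 0.000169). Without replicates 1 and 5 Mrpl9, Mrpl49, Mrps11 and Mrps25 also passed the test as lower in the triple knockdown, at -0.19, -0.19, -0.29 and -0.28. With the length trend removed Mrpl9, Mrpl49 and Mrps11 passed as lower too, but Mrps25 was at 0.0021 (limma, adjusted p = 0.991). Nr2c2 overlaps 58.2% of the exon bases of Mrps25.

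**Figure D3:**
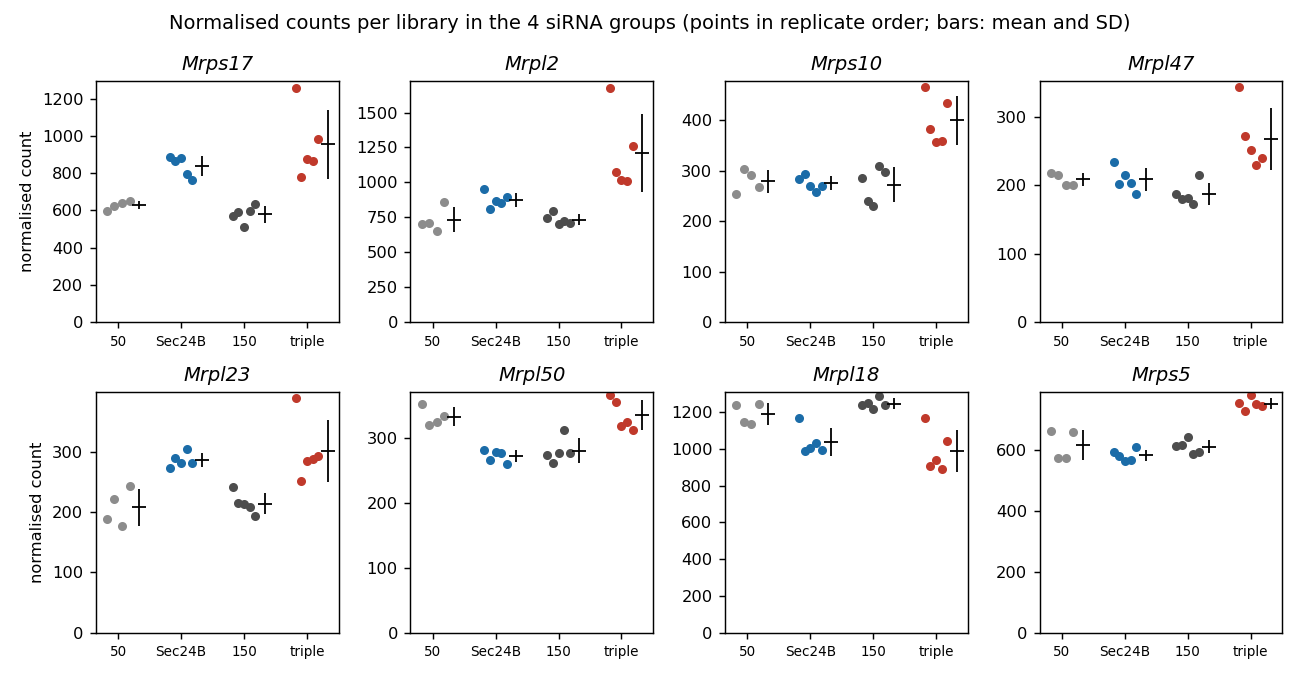
Normalised counts (vertical axes, from 0) of 8 members in each library of the 4 groups (horizontal axes: 50 and 150 nM scrambled siRNA, Sec24B and triple knockdown); points are libraries in replicate order and bars the mean and SD. Mrps5 shows 5 triple knockdown libraries close together at 730 to 782 above all 150 nM controls, Mrps17 and Mrpl2 show replicate 1 highest, and Mrpl18 shows lower values.

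Members of bacterial descent and members acquired by the mitochondrial ribosome both rose in part in the triple knockdown, where 16.8% of all genes rose and 17.2% fell. Of 45 members of bacterial families 30 rose and 1 fell, with a median log2 fold change of 0.29. Of 28 acquired members 13 rose and none of the 28 fell (also 0 at an unadjusted p under 0.05 and by edgeR and DESeq2), with a median of 0.20. Leaving out replicates 1 and 5 gave 20 and 3 of 45 and 8 and 2 of 28, against 14.8% and 16.0% of all genes. The difference between these classes was not tested. Mrps36 and Mrpl55 were placed in neither class, Mrpl55 because its origin was unsure. They were at 0.18 ± 0.11 (SE) (limma, adjusted p = 0.241) and 0.19 ± 0.12 (SE) (adjusted p = 0.237). The stalk proteins Mrpl10, Mrpl11 and Mrpl12, which help recruit translation factors, did not pass the test, at 0.070 ± 0.062 (SE), 0.17 ± 0.10 (SE) and 0.17 ± 0.099 (SE). Mrpl58, a peptidyl-tRNA hydrolase built into the large subunit, rose by 0.36 ± 0.077 (SE) (adjusted p = 0.000789), and by 0.24 without the 2 libraries.

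Knockdown of Sec24B alone moved few members. Of the 75, 3 rose and 1 fell, against 7.53% and 7.08% of all genes, and the median log2 fold change was -0.0058. For 4 members the groups did not overlap with the knockdown above, and for 4 with it below, against 9.23% and 9.13% of all genes. Mrpl23 (ENSMUSG00000037772, chr7:142532686-142540747, plus strand) was at 188, 222, 177 and 243 normalised counts with 50 nM scrambled siRNA and at 273, 289.6, 281, 305 and 282 in the Sec24B knockdown. The groups were apart, with a change of 0.47 ± 0.11 (SE) (adjusted p = 0.00357). In the triple knockdown Mrpl23 went from 241, 215, 213, 208 and 193 in the controls to 389, 251, 284, 288 and 292, a rise of 0.48 ± 0.10 (SE) (adjusted p = 0.000636), which was 0.36 without replicates 1 and 5 and 0.26 with the length trend removed. The triple effect minus the Sec24B effect was 0.0056 ± 0.15 (SE) (adjusted p = 0.987), which does not show that the effects are equal.

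Mrps17 and Mrps16 were the other members that rose in the Sec24B knockdown. Mrps17 was at 599, 623, 639 and 649.5 with 50 nM scrambled siRNA and at 887, 864, 885, 795 and 766 in the Sec24B knockdown, a rise of 0.42 ± 0.096 (SE) (adjusted p = 0.00369). The lowest knockdown library lay above the highest control. Mrps16 (bS16) was at 548, 576, 553 and 629 in the controls and at 771, 686, 774, 696 and 739 in the knockdown, also without overlap. Its rise of 0.35 ± 0.11 (SE) passed the test narrowly (adjusted p = 0.0304) and no longer passed in 6 of the 19 fits that leave out 1 library each. These were the fits without 50 nM replicate 1, 2 or 3 and without Sec24B knockdown replicate 1, 3 or 5, with adjusted p of 0.0564 to 0.0866. In the triple knockdown it was called at 0.29 ± 0.10 (SE) (adjusted p = 0.0318), but at 0.080 without replicates 1 and 5 it did not pass (adjusted p = 0.429). Leaving out control replicate 1 or 3 or triple knockdown replicate 1 or 5, 1 at a time, also ended this call, with adjusted p of 0.0718 to 0.102. Without those 2 libraries, whose wide spread enters the shared estimate, 5 members passed as higher and 5 as lower in the Sec24B comparison, against 10.7% and 11.0% of all genes.

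The changes of Mrpl50, each against its own control, had opposite directions in the knockdowns. Mrpl50 (ENSMUSG00000044018, chr4:49512596-49521093, minus strand) is a large-subunit protein acquired by the mitochondrial ribosome. It was at 352, 320.1, 324 and 333 with 50 nM scrambled siRNA and at 282, 266, 277, 276 and 259.9 in the Sec24B knockdown, lower in every library. The log2 change was -0.29 ± 0.072 (SE) (adjusted p = 0.00791). With 150 nM scrambled siRNA the gene was at 273, 260.4, 277, 312 and 276, and in the triple knockdown it was at 365, 354, 317, 324 and 312, where the lowest library was 312.5 and the highest control 311.7. The change there was 0.26 ± 0.068 (SE) (adjusted p = 0.00443), and 0.25 without replicates 1 and 5. Mrpl50 was also one of 2 members that differed between the scrambled controls, with a log2 change of -0.25 ± 0.072 (SE) from 50 to 150 nM (adjusted p = 0.0307), a size close to both knockdown effects. Leaving out 50 nM replicate 1, 2 or 3 or 150 nM replicate 2, 3 or 5, 1 at a time, ended the call between doses, with adjusted p of 0.0579 to 0.121. Against the average of both scrambled groups the Sec24B value was -0.16 and did not pass (limma, adjusted p = 0.0518). The triple knockdown call was kept in 12 of the 13 alternatives other than leaving out 1 library. The mean of the triple knockdown (334.6) was near that of the 50 nM control (332.3). That of the Sec24B knockdown (272.1) was near that of the 150 nM control (279.6). Both directions thus depend on the control used.

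**Figure D4:**
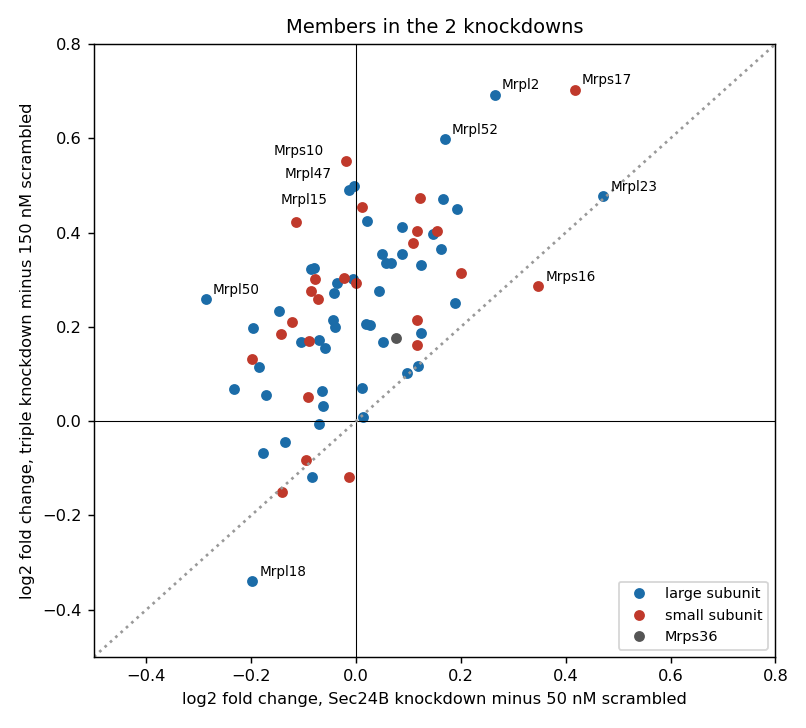
Log2 fold change of each member in the Sec24B knockdown against 50 nM scrambled siRNA (horizontal axis) and in the triple knockdown against 150 nM scrambled siRNA (vertical axis); each point is 1 gene, coloured by subunit, and the dotted line marks equal change. Most points lie above the line, Mrpl23 lies on it, and Mrpl50 lies left of 0 and above 0.

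The difference between both knockdown effects was tested directly, as the triple effect minus the Sec24B effect. For 14 of the 75 members the triple effect was the higher and for none of the 75 the lower, against 7.44% and 8.38% of all genes. At an unadjusted p under 0.05 limma gave 32 and 0, and edgeR and DESeq2 each called 15 and 0. The median difference was 0.26, against -0.0070 over all genes. The largest were Mrps10 (0.57 ± 0.13 (SE), adjusted p = 0.00392), Mrpl50 (0.55 ± 0.099 (SE), adjusted p = 0.000374) and Mrps18b (0.54 ± 0.12 (SE), adjusted p = 0.002). Mrpl15 and Mrpl47 followed at 0.50 ± 0.11 (SE) and 0.50 ± 0.14 (SE), with adjusted p of 0.00314 and 0.0148. Mrps18b was at 628, 715, 788 and 771 with 50 nM scrambled siRNA, at 743, 624, 675, 695 and 612 in the Sec24B knockdown, at 733, 791, 699.5, 830.0 and 751 with 150 nM scrambled siRNA and at 1204, 961, 906, 958 and 1092 in the triple knockdown. The Sec24B knockdown overlapped its control and the triple knockdown did not. Gm16279 overlaps 59.1% of the exon bases of Mrps18b. In the fit without replicates 1 and 5 the counts were 14 and 2 (9.45% and 10.4% of all genes), with 12 of the 14 shared and a median of 0.11. With the length trend removed they were 18 and 1 (9.65% and 9.35%), with 13 shared and a median of 0.16.

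Raising the scrambled siRNA from 50 to 150 nM gave little change in the members. None of the 75 rose and 2 fell, against 4.75% and 4.10% of all genes, and the median was -0.020. At an unadjusted p under 0.05 limma gave 2 higher and 7 lower, and edgeR and DESeq2 each called 0 and 2. Without replicates 1 and 5 of the triple knockdown, which enter only through the shared spread, 1 rose and 7 fell, against 8.89% and 8.05%. Mrpl32 (bL32), a large-subunit protein that is known to be matured by a protease of the inner membrane, was at 573, 644, 572 and 608 at 50 nM and at 481, 434, 370.1, 536 and 464 at 150 nM. The log2 change was -0.40 ± 0.11 (SE) (adjusted p = 0.0223), and the groups did not overlap. Leaving out 50 nM replicate 2, 150 nM replicate 2 or 150 nM replicate 3 ended the call, with adjusted p of 0.0877, 0.053 and 0.0744.

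Many members share a start region with a gene on the other strand. Such a neighbour, with a start at most 1000 bases upstream or at most 500 bases past the start of the member, was found for 26 members, and 24 of the neighbours are not members themselves. Mrpl46 and Mrps11 face each other. Of the 26 members 15 rose in the triple knockdown (16.8% of all genes did), and 6 of these had a neighbour that also rose. Without replicates 1 and 5 the counts were 10 and 4, and 14.8% of all genes rose. Mrpl2, for example, starts 207 bases from Klc4, a kinesin light chain gene, which rose by 0.42 ± 0.082 (SE) (adjusted p = 0.000275), and by 0.30 without the 2 libraries. Mrpl54 starts 26 bases from Apba3, which rose by 0.55 ± 0.075 (SE) (adjusted p = 2.68e-06), and by 0.46 without them. In 2 pairs the neighbour fell while the member rose, and in 1 pair without the 2 libraries. Mrps18b starts 45 bases from Ppp1r10, a regulatory subunit of a protein phosphatase, which fell by 0.55 ± 0.065 (SE) (adjusted p = 2.93e-07). Mrpl57 starts 49 bases from Ska3, a kinetochore gene, which fell by 0.36 ± 0.082 (SE) (adjusted p = 0.00122). The rise of Mrpl57 was 0.27 ± 0.095 (SE) (adjusted p = 0.0288), and 0.11 without replicates 1 and 5, where it did not pass (adjusted p = 0.331). Leaving out control replicate 1, 3, 4 or 5 or triple knockdown replicate 1 or 5, 1 at a time, also ended this call, with adjusted p of 0.057 to 0.0854. Of all 75, 18 members have over 5% of their exon bases overlapped by another gene, and 8 of these rose, against 35 of the other 57. Without the 2 libraries these counts were 6 and 22.

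Genes that act with the mitochondrial ribosome were described from lists chosen with earlier results of these data known. For each list the triple knockdown shares over all genes were 16.8% higher and 17.2% lower. Without triple knockdown replicates 1 and 5 they were 14.8% and 16.0%. Of 26 factors of ribosome assembly and rRNA modification 15 rose and none of the 26 fell in the triple knockdown (edgeR and DESeq2 each 15 and 0, limma at an unadjusted p under 0.05 17 and 1), with a median log2 fold change of 0.31, against 16.8% of all genes, and without replicates 1 and 5 the count was 14. Rcc1l, Trub2 and Ngrn, which act together in modifying the large rRNA, rose by 0.46 ± 0.063 (SE), 0.41 ± 0.061 (SE) and 0.64 ± 0.10 (SE), with adjusted p of 3.31e-06, 8.37e-06 and 1.92e-05. Their changes without the 2 libraries were 0.40, 0.37 and 0.50. Of 18 genes of mitochondrial transcription and RNA handling 9 rose and 1 fell, and without the 2 libraries 10 rose and none of the 18 fell. Lrpprc and Slirp, whose products form a complex that protects mitochondrial mRNAs, rose by 0.37 ± 0.048 (SE) and 0.59 ± 0.12 (SE), and Tfam, the packaging and transcription factor of mitochondrial DNA, rose by 0.49 ± 0.079 (SE), with adjusted p of 1.92e-06, 0.000303 and 2.4e-05. Without the 2 libraries these were 0.39, 0.37 and 0.45. Pnpt1, a ribonuclease, fell by 0.18 ± 0.070 (SE) (adjusted p = 0.0487) and did not pass without the 2 libraries (-0.14, adjusted p = 0.0965) or by edgeR (adjusted p = 0.0588). Of 20 genes that charge mitochondrial tRNAs 9 rose, led by Ears2 at 0.55 ± 0.097 (SE) (adjusted p = 8.02e-05), and without the 2 libraries 8 rose, with Ears2 at 0.39. Of 14 translation factors 5 rose, among them Guf1 at 0.43 ± 0.098 (SE) (adjusted p = 0.00131). Without the 2 libraries 3 rose and 1 fell, not far from the shares over all genes, and Guf1 was at 0.54. Between the scrambled doses Guf1 was lower at 150 nM, at -0.42 ± 0.10 (SE) (limma, adjusted p = 0.0118). Its mean was 421 at 50 nM, 314 at 150 nM and 424 in the triple knockdown. Of 5 mitochondrial ribosome proteins with other names 1 rose, Aurkaip1 at 0.34 ± 0.11 (SE) (adjusted p = 0.0151), a share near that of all genes. Without the 2 libraries it was at 0.11 (adjusted p = 0.256), and none of the 5 passed.

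Of the RNAs made inside the organelle, the small rRNA rose, the call of the large rRNA depended on replicates 1 and 5, and no mRNA passed the test. None of the 13 mitochondrial mRNAs passed the test in the triple knockdown (limma, adjusted over all genes), with a median log2 fold change of -0.11. At an unadjusted p under 0.05, 2 were lower, edgeR called 0 and DESeq2 1 lower. None of the 13 passed without replicates 1 and 5, and with the length trend removed 8 were lower (18.3% of all genes). The small rRNA mt-Rnr1 rose by 0.69 ± 0.12 (SE) (adjusted p = 5.63e-05), from 1559, 1356, 1043, 1508 and 1482 to 2943, 2049, 2429, 2169 and 1727, and by 0.68 without replicates 1 and 5. The large rRNA mt-Rnr2 was at 0.26 ± 0.12 (SE) (adjusted p = 0.0936), and without replicates 1 and 5 it was at 0.25 and passed the test (adjusted p = 0.0341). With the length trend removed it was at 0.15 and did not pass (limma, adjusted p = 0.326). Its mean was 7247 at 50 nM, 5140 at 150 nM and 6246 in the triple knockdown, below the 50 nM control. These RNAs differed between the controls already: 4 mRNAs and mt-Rnr2 were lower at 150 nM than at 50 nM, and all 13 mRNAs were below 0, with a median of -0.29. Selection of polyadenylated RNA is not stated for these libraries, and it would bear on these levels.

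**Figure D5:**
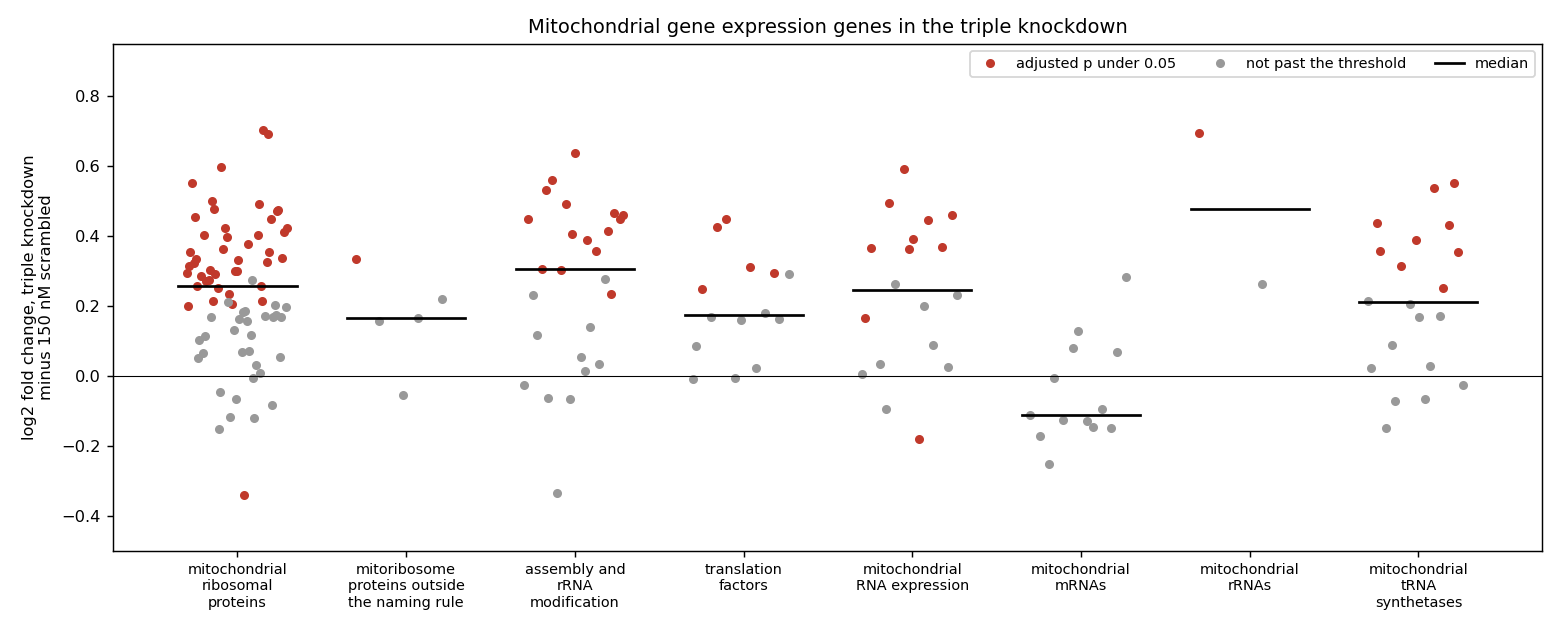
Log2 fold change in the triple knockdown against 150 nM scrambled siRNA (vertical axis) of the members and of 7 lists of genes of mitochondrial gene expression (horizontal axis); each point is 1 gene and the line the median. The median is 0.26 for the members, 0.31 for assembly and rRNA modification and -0.11 for the mitochondrial mRNAs.

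The proteins of the cytosolic ribosome moved in the same libraries. Of 75 cytosolic ribosomal protein genes 59 rose and none of the 75 fell in the triple knockdown, against 16.8% and 17.2% of all genes. At an unadjusted p under 0.05 limma gave 65 and 0, and edgeR and DESeq2 each called 63 and 0. The median log2 fold change of the cytosolic genes was 0.40. Their medians per library were 0.83 and 0.43 in replicates 1 and 5, against 0.0077 to 0.086 in replicates 2 to 4. Without the 2 libraries 36 rose (14.8% of all genes), with a median of 0.18. With the length trend removed 45 rose (16.7% of all genes), with a median of 0.20. In the Sec24B knockdown none of the 75 cytosolic genes passed the test in limma, edgeR or DESeq2, and 1 was lower at an unadjusted p under 0.05. The part of transcript length and of replicates 1 and 5 in the rise of the members was not tested beyond the values given here.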

How the data were processed

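RNA of 19 libraries was measured by RNA-seq after TRIzol extraction and reverse transcription, per the labels' protocols. Human genome builds are listed in the submitters' processing notes, although the gene IDs are mouse, beside TopHat2 2.0.8, Partek 6.6, Trimmomatic 0.27 and FastQC 0.10.1, with no order given. Strand, poly(A) selection and the read counter are not given in the sources used here. Each signal column that the authors deposited holds reads scaled by a single factor, called normalised counts here. Whole reads came back within 0.0055 for at least 99.99% of values in each library. The log2 fold changes and adjusted p-value columns deposited by the authors served only for comparison.

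Genes reaching a value of 1 in 4 or more libraries (19635 of 19716, 81 removed) were fitted with limma 3.58.1 with an intensity trend in R 4.3.3 on log2(value + 1), which understates changes of low genes. The fit used 4 group means over all 19 libraries, and p-values were adjusted by Benjamini-Hochberg over all genes, with a threshold of 0.05. The script was tested on simulated data. Alternatives included edgeR 4.0.16 and DESeq2 1.42.0 on the recovered reads, other scalings, filters and pseudocounts, each library left out in turn, the fit without triple knockdown replicates 1 and 5, and a loess fit (span 0.5) on transcript length over 10724 coding genes subtracted per library. Members named in full were the 10 largest called changes in each direction per knockdown, the 5 largest of the other comparisons, and the extremes of level per length. Mrps2, Mrps5, Mrps18a, Mrps18c, Mrpl22, Mrpl30, Mrpl58, the stalk proteins and the genes facing members were chosen after their values were seen. Members and lists were chosen with earlier results of these data known. At this depth 1 read is worth 0.736 to 1.638 normalised counts, without molecular identifiers counting error is only a part of the error. GENCODE M21 gave overlaps and lengths, and promoters came from RefSeq.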

Additional observations from a re-analysis of the deposited data

Results flagged for a closer look

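In 48 groups examined, 5 showed 1 library far from the rest by Dixon's ratio, the gap to the nearest library divided by the range of the group. Chance gives about 1 in 20 such groups. In the triple knockdown, replicate 1 stood alone for Mrpl15 (ratio 0.727, 1293 normalised counts), Mrps14 (0.842, 777.2 normalised counts) and Mrps23 (0.742, 664.5 normalised counts). With 150 nM scrambled siRNA, replicate 3 was low for Mrps14 (0.762, 316.2 normalised counts). In the Sec24B knockdown, replicate 1 had the highest median deviation of the members (0.053, ratio 0.727).

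For 14 members the triple knockdown effect differed from the Sec24B effect by the test of the difference, and in each the triple effect was the higher.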

How the results depend on the processing

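The count of members that rose in the triple knockdown was 43 and ran from 31 to 45 over 12 alternatives; it was 28 without triple knockdown replicates 1 and 5. Its count lower was 1, and 2 against the average of both scrambled groups, 5 without replicates 1 and 5, and 8 with the length trend removed. Leaving out 1 library gave 33 to 45 higher and 1 to 3 lower, the 3 without triple knockdown replicate 1.

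The Sec24B counts of 3 higher and 1 lower moved more. Against both scrambled groups they were 7 and 4, without replicates 1 and 5 of the triple knockdown 5 and 5, and lower counts were 8 with the length trend removed, 5 with the compared groups alone and 2 each with a mean of at least 10, DESeq2 and the replicate block. Calls over all genes, in either direction, moved in these settings too. From 2868 they went to 4805 against both scrambled groups and to 4263 without the 2 libraries. They were 3584 with the length trend removed and 3946 with the compared groups alone. A mean of at least 10 gave 3062, DESeq2 3253 and the replicate block 2654. Leaving out 1 library gave 2 to 5 higher (5 without 50 nM replicate 4) and 1 to 4 lower (4 without triple knockdown replicate 1, 2 without Sec24B replicate 1).

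Over all genes, the calls between the scrambled doses (1737) were 1414 under the replicate block, 2554 with the compared groups alone and 2543 with the length trend removed. Between the scrambled doses the count of 2 was 1 under the replicate block, 6 with the compared groups alone, 8 without replicates 1 and 5, 5 with the length trend removed, and 0 to 6 with 1 library left out. It was 0 without 50 nM replicate 2, 150 nM replicate 2 or 150 nM replicate 3, 1 without 50 nM replicate 1, 50 nM replicate 3 or 150 nM replicate 5, and 6 without triple knockdown replicate 1. The count of differing effects (14) was 12 to 19. Over all genes, leaving out 1 library gave 2132 to 3760 calls for Sec24B (2868), 6010 to 6793 for the triple knockdown (6680), 899 to 2682 between doses (1737) and 2581 to 3518 for the difference (3107); Sec24B against both scrambled groups gave 4805, and the doses without replicates 1 and 5 gave 3325. The cause was not tested.

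Replicate numbers did not pair libraries: deviations of same-numbered libraries correlated at -0.31 to 0.28. With the number as a block 43 members rose and 1 fell in the triple knockdown, and 2 rose and 2 fell in the Sec24B knockdown. The rule for members named in full picked only the largest called changes of each comparison. For these, 515 of 533 alternative values kept their call, 18 lost it and 0 changed direction. Those lost were Mrps16 and Mrpl50 in the Sec24B knockdown and Mrpl32 and Mrpl50 between doses. Other calls are not covered by these numbers. Of all 43 members that rose in the triple knockdown, 28 kept the call without replicates 1 and 5. Another scaling moved the median of all genes by at most 0.026. The smallest rise that passed in the triple knockdown was 0.20 on the log2 scale; what size passes depends on the depth and spread of each gene.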

Other observations

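In the Sec24B knockdown a few of the genes acting with the mitochondrial ribosome passed the test, where 7.53% of all genes rose and 7.08% fell. They are named as single genes, and a change of their lists was not tested. Grsf1, a protein of mitochondrial RNA granules, fell by 0.46 (adjusted p = 5.87e-05, limma), Afg3l2, a subunit of the protease known to mature Mrpl32, fell by 0.28 (adjusted p = 0.00186), and Ptcd3, a small-subunit protein outside the naming rule, fell by 0.22 (adjusted p = 0.0415). Aars2, which charges mitochondrial tRNA with alanine, rose by 0.38 (adjusted p = 0.00605), and so did Vars2, which charges that of valine, by 0.25 (adjusted p = 0.0305), and Pnpt1, a ribonuclease, by 0.22 (adjusted p = 0.0476). All 13 mitochondrial mRNAs had log2 fold changes below 0, with a median of -0.19, and mt-Nd6 passed the test (-1.09, adjusted p = 0.00909). The count lower was 2 by edgeR and by DESeq2, 3 with the length trend removed and 8 without triple knockdown replicates 1 and 5, whose spread enters the shared estimate.

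Between the scrambled doses Tfb1m, which methylates the small mitochondrial rRNA, was lower at 150 nM by 0.61 (adjusted p = 0.00183), and in the triple knockdown it was higher than at 150 nM by 0.53 (adjusted p = 0.000673). Pnpt1 was lower at 150 nM by 0.62. Of 4 table entries named as pseudogenes of members, 1 was higher in each knockdown; reads they share with the parent gene cannot be told apart.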
